A study of Mus musculus with 60 samples.

Results

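The measurements described here concern chromosome 19 in clone 38, a line of mouse embryonic stem cells (ESCs) whose chromosome 19 reads were weighted towards the 129 copy. The members were 2 libraries of clone 38 grown without doxycycline, set against 4 untreated libraries of clones 228 and 273, out of 60 samples in the series. They were chosen because the median chromosome 19 Cast/all ratio of clone 38 departed from that of the other clones, so the untreated chromosome 19 values below are a description with no test. The 6 libraries of the same clones grown with doxycycline took no part in that choice and carried the tests. They come from the clones that were singled out, so a chromosome 19 difference in them could be foreseen, by library and by gene. Of 14003 genes listed in any library, 486 lay on chromosome 19. Of these, 348 were listed in any of the 12 libraries of the 3 clones, 196 in all 6 untreated libraries, 222 in all 6 treated libraries and 189 in all 12.

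The study followed the silencing of autosomes by Xist, the noncoding RNA that inactivates an X chromosome in female mammals. All 3 clones came from female ESCs of an F1 cross (129/Sv × Cast/Ei, line F1 2-1) that carried an extra copy of chromosome 12. They were kept in 2i medium with LIF, a culture that the study describes as free of feeder cells. They expressed the doxycycline-responsive activator from the ROSA26 locus and bore an inducible Xist transgene on chromosome 12. By the study's description the transgene sat on a Cast copy of chromosome 12 in clones 228 and 273 and, if the clone 38 of the labels is the line that the study lists as 55-38, on the 129 copy in clone 38. Each clone gave 2 libraries without and 2 with doxycycline, and each is a single clone with its own transgene integration. What follows from chromosome 19 and what follows from another property of clone 38 therefore cannot be told apart for genes elsewhere in the genome. The same holds for the difference of any single gene on chromosome 19. The study calls the replicates biological, but the sources used here do not say whether they were separate cultures, so p-values measure only the spread between these libraries, which may be technical.

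A cell with an extra copy of a chromosome has more template for every gene on it. Transcript levels of such genes usually rise with copy number, but products held by feedback can stay near the level of diploid cells, which is called buffering. Mouse chromosome 19 is a small, gene-dense autosome that holds genes for desaturases (Scd1, Scd2, Fads1), for ribosome assembly (Rrp12, Pdcd11, Nolc1), for splicing (Sart1, Prpf19, Sf1), for chromosome segregation (Incenp, Smc3, Kif11) and the long noncoding RNAs Malat1 and Neat1. With 1 Cast and 2 129 copies and equal output per copy, the Cast/all ratio (Cast reads over Cast plus 129 reads) would be 0.333 and the total would be 1.5-fold that of 2 copies.

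The 12 libraries held between 2284822 and 7709419 reads over listed genes, of which 731374 to 2130938 could be assigned to an allele. The files list only genes with at least 8 allele reads, so a gene that is not listed lies below that minimum and is not a zero. The untreated replicates of clone 38 differed more from each other than those of the other pairs did, with a chi-square per degree of freedom of 92.0 over genes against 7.88 to 19.01 in the other 5 pairs. All libraries listed the pluripotency genes Pou5f1, Sox2 and Nanog. Of 11 markers of fibroblast feeder cells, 2 to 4 were listed, among them the widely expressed Vim and Fn1, while Col1a1 and Col3a1 were not listed, and the summed level without doxycycline was 1587 and 722 CPM in clone 38 (total counts scaled to a common library size by TMM) and 783 to 1523 CPM in the controls. With doxycycline it was 1703 and 1278 CPM in clone 38 and 783 to 1107 CPM in the controls, which did not overlap, and its part in the treated differences below was not tested. Of 11 markers of primitive endoderm, 4 to 6 were listed, with summed levels of 450 and 241 CPM in clone 38 and 286 to 551 CPM in the controls without doxycycline, and of 472 and 458 CPM against 363 to 456 CPM with it.

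Without doxycycline, the median Cast/all ratio over chromosome 19 genes was 0.340 and 0.345 in the 2 libraries of clone 38. It was 0.505 and 0.5 in clone 228 and 0.5 in both libraries of clone 273. The groups were far apart, and in the 44 ESC libraries of the 12 other clones the ratio ranged from 0.498 to 0.512. The other autosomes of clone 38 apart from 8 and 12 had medians between 0.474 and 0.507 in those libraries. Chromosomes 8 and 12 were at 0.665 ± 0.0075 and 0.664 ± 0.0052 in clone 38 (SD, n = 2) and at 0.665 ± 0.0014 and 0.672 ± 0.0083 in the controls (SD, n = 4), so that the Cast-weighted state of these chromosomes was shared.

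**Figure D1:**
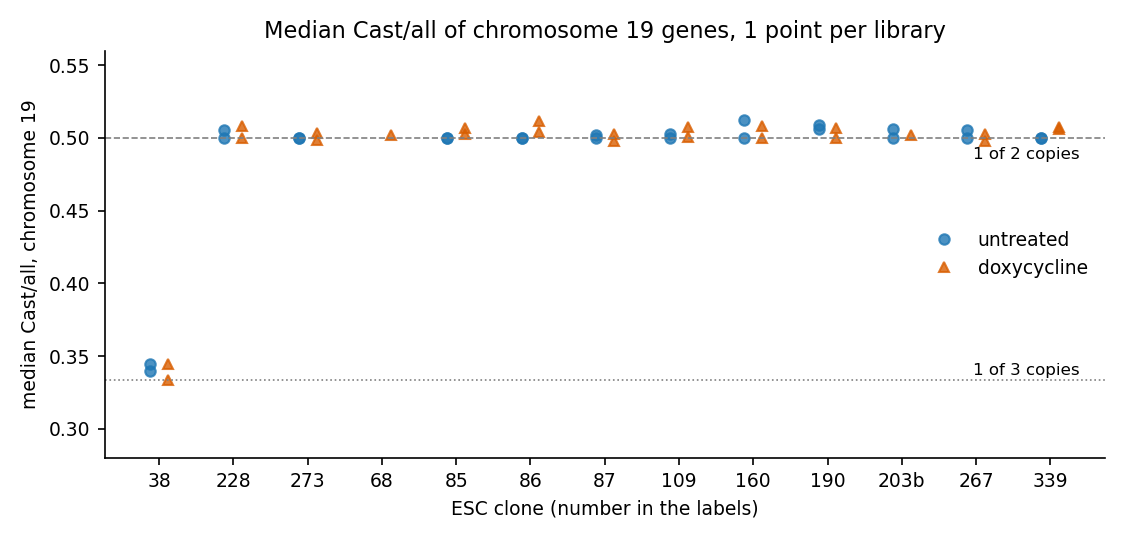
Median chromosome 19 Cast/all ratio (vertical axis, share of allele reads) in each ESC library by clone (horizontal axis), with treated and untreated libraries marked apart. The 4 libraries of clone 38 sit between 0.333 and 0.345 and the 44 libraries of the other clones between 0.498 and 0.512.

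The same measure was then read in libraries that had not been used to single out the clone. With doxycycline, the ratio was 0.333 and 0.345 in clone 38, with a mean of 0.339 ± 0.0081 (SD, n = 2), and ranged from 0.499 to 0.508 in clones 228 and 273, with a mean of 0.503 ± 0.0043 (SD, n = 4). The difference of -0.164 gave p = 0.0667 in an exact two-sided permutation test, the smallest p that the 15 possible splits allow. Against the 22 treated libraries of all other clones the difference was -0.164 and the exact permutation p was 0.0036, the smallest that 276 splits allow. Both tests take libraries as the unit, although most are pairs from the same clone and both clone 38 libraries come from a single clone. Clone 38 was also chosen for its untreated ratio, so a low treated ratio could be foreseen. These p-values therefore do not speak for clones.

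The shift ran along the whole chromosome rather than resting on a segment. In successive windows of 10 Mb (mm10), the median ratio of the 4 clone 38 libraries stayed between 0.273 and 0.361, and the control median stayed between 0.497 and 0.512. The lowest value came from the window from 20 to 30 Mb, which held few genes, and the other windows stayed between 0.315 and 0.361. Gene by gene, 150 of 196 genes had a lower ratio in both untreated clone 38 libraries than in all 4 control libraries (76.5%), and 1 had a higher ratio (0.51%), against 9.55% and 8.94% of genes off chromosome 19. In treated libraries this held for 175 of 222 genes (78.8%), with 0 genes in the other direction, against 9.57% and 10.6% off chromosome 19.

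The per-gene test of the Cast to 129 ratio in treated libraries (edgeR quasi-likelihood, Benjamini-Hochberg adjusted p under 0.05) called 108 of 222 chromosome 19 genes towards 129 (48.6%) and 0 towards Cast. Off chromosome 19, 0.577% of 6062 genes were called towards 129 and 0.891% towards Cast. At an unadjusted p under 0.05, 173 chromosome 19 genes were towards 129 (77.9%, against 4.49% off chromosome 19) and 0 towards Cast (against 5.33%). The median shift over chromosome 19 genes was -0.98 on the log2 scale. Without clone 38 replicate 1 the test called 68 genes towards 129, and without replicate 2 it called 64.

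The ratio alone does not say which copy changed, so the reads of each allele were scaled to genes off chromosomes 19 and 12. In treated libraries, 129 reads of chromosome 19 genes were higher in clone 38 by a median of 1.15 on the log2 scale (2.21-fold, 222 genes), while Cast reads differed by a median of 0.11 (1.08-fold). Per library, the 129 medians were 1.15 and 1.12 and the Cast medians 0.10 and 0.16. In untreated libraries the medians were 1.10 (2.15-fold) for 129 reads and 0.10 (1.07-fold) for Cast reads. In each of these libraries the 129 reads stood further above the controls than the Cast reads did.

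Total counts (all reads of a gene, allele-informative or not) were used for the dosage of each gene. The median log2 difference of clone 38 from the controls was 0.59 over 194 chromosome 19 genes in untreated libraries (1.505-fold, quartiles 0.18 to 1.02) and 0.59 over 220 genes in treated libraries (1.51-fold, quartiles 0.17 to 0.96). Off chromosome 19 the medians were -0.01 and -0.02. The medians of the other chromosomes ranged from -0.29 (chromosome X) to 0.21 (chromosome 17) in untreated and from -0.20 (chromosome X) to 0.10 (chromosome 15) in treated libraries, so that chromosome 19 lay above all of them. In bulk samples, fewer cells of a type and less RNA per cell cannot be told apart.

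**Figure D2:**
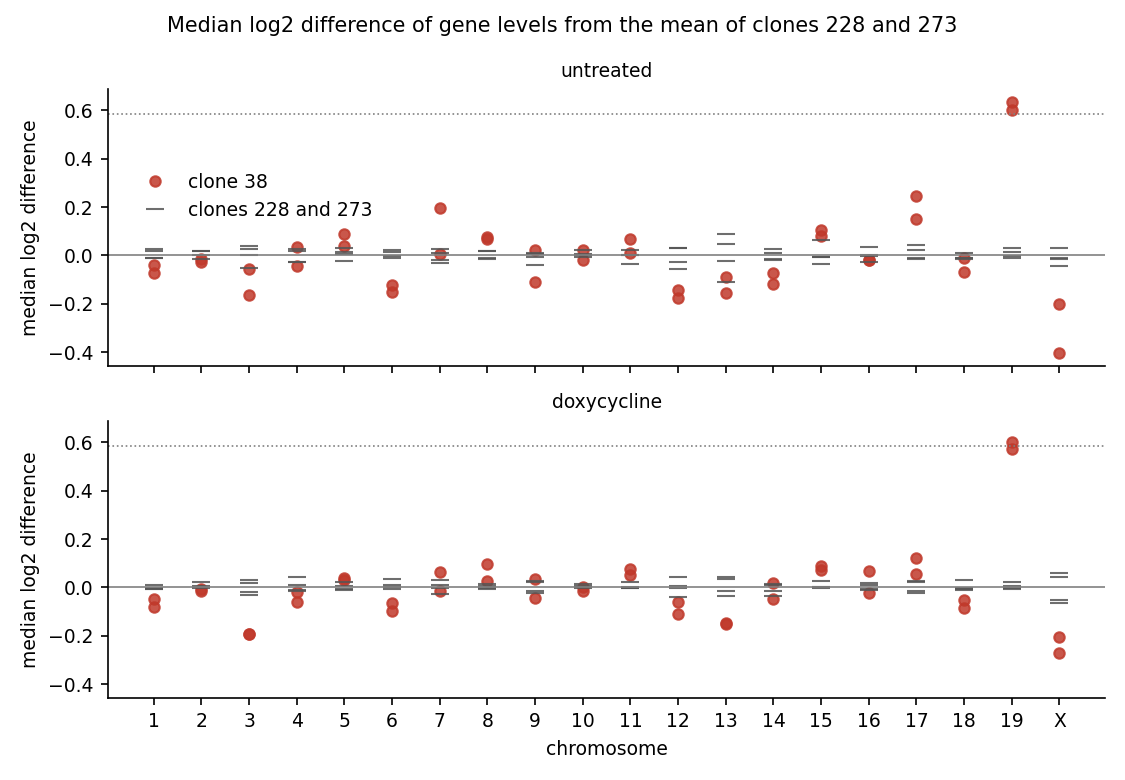
Median log2 difference in gene level of each library from the mean of the 4 control libraries (vertical axis), by chromosome (horizontal axis), without (upper) and with doxycycline (lower). Circles are the 2 libraries of clone 38, dashes the 4 control libraries, and the dotted line marks 1.5-fold. On chromosome 19 the clone 38 circles lie between 0.57 and 0.64, and on the other chromosomes between -0.40 and 0.25.

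In untreated libraries, both clone 38 libraries lay above all 4 controls for 111 of 194 chromosome 19 genes and below them for 7. These counts are 57.2% and 3.61% of the genes, against 18.1% and 18.7% off chromosome 19, and are given as a description. The treated test called 120 of 220 genes higher (54.5%) and 6 lower (2.73%), against 16.4% higher and 19.4% lower of 6034 genes off chromosome 19. Without clone 38 replicate 1 the test called 54 chromosome 19 genes higher, and without replicate 2 it called 70. The 6 genes called lower were Atad1 (-0.42), Cbwd1 (-0.55), Fam45a (-0.52), Rasgrp2 (-0.58), Rpp30 (-0.58) and Zfp518a (-0.70), which fell outside the rule for named genes in part and were listed after their values were seen. With an offset for the GC content and length of exons, described below, Rasgrp2 was the only one of them still called.

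The libraries also fell into a low and a high class of total over allele reads (3.03 to 3.12 and 3.36 to 3.70), each with 1 treated clone 38 library. The median chromosome 19 difference less that of other genes was 0.60 within both classes, against 0.61 over all treated libraries, and with 3 libraries each the classes gave 44 and 2 chromosome 19 genes called higher.

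The genes spread widely around 1.5-fold. The 95% interval of the treated log2 difference lay wholly above log2(1.5) for 51 of 220 genes (23.2%), wholly below it for 58 (26.4%), and held it for 111. Off chromosome 19, the interval lay wholly above no change for 22.5% of genes and wholly below it for 25.2%, so these shares around 1.5-fold are near those of other genes around no change. Of the 51 above, 39 of the 43 with an untreated value were above log2(1.5) there too. Of the 58 below, 40 of the 56 with an untreated value were also under 0.29, the midpoint of the log2 scale between no change and 1.5-fold. The interquartile range of chromosome 19 genes was 0.79 in treated libraries, against 0.76 for genes off chromosome 19, where clones differ with no difference in copy number. Across genes, treated and untreated log2 differences correlated with r = 0.75 and rho = 0.76 on chromosome 19 (187 genes) and with r = 0.75 and rho = 0.74 off it (4955 genes). The genes are not independent replicates, and both comparisons rest on the same 3 clones.

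**Figure D3:**
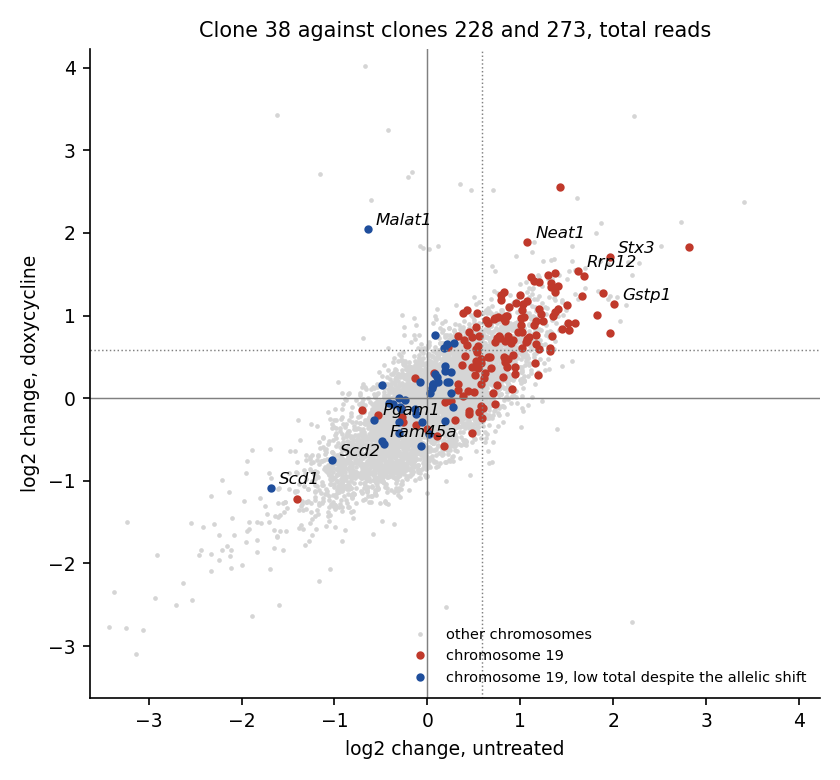
Log2 difference in total counts between clone 38 and controls for each gene, in untreated libraries (horizontal axis) against treated libraries (vertical axis). Grey points are genes of other chromosomes, red points chromosome 19 genes, blue points the chromosome 19 genes called buffered below, and dotted lines mark 1.5-fold. Chromosome 19 genes follow the diagonal with r = 0.75, with Scd1 low and Stx3 high in both conditions and Malat1 at -0.64 without and 2.04 with doxycycline.

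Among the genes furthest above the controls in untreated libraries was Stx3 (chr19:11775118-11821569), a syntaxin of vesicle fusion. Its untreated level was 138.6 and 162.4 CPM in clone 38, 42.3 and 32.9 CPM in clone 228, and 41.6 and 37.0 CPM in clone 273. Its treated level was 136.5 and 144.8 CPM in clone 38 and 40.4 to 45.0 CPM in the controls, a log2 difference of 1.71 ± 0.12 (SE), with an edgeR adjusted p of 0.0011. Clone 38 stood apart by more than 3-fold in every library. Its Cast/all ratio was 0.588 and 0.573 in treated clone 38 and 0.705 to 0.838 in the controls, so both groups were weighted towards Cast.

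Rrp12 (chr19:41859483-41896153), a factor of ribosomal subunit export, was at 204.2 and 182.8 CPM in untreated clone 38 and 43.1 to 82.7 CPM in the controls. With doxycycline it was at 198.3 and 187.4 CPM against 43.8 to 105.6 CPM, a log2 difference of 1.54 ± 0.32 (SE, edgeR adjusted p = 0.0086). Sart1, a component of the tri-snRNP of the spliceosome, was at 158.5 and 187.0 CPM in treated clone 38 and 49.5 to 71.4 CPM in the controls, a log2 difference of 1.48 ± 0.16. No control library of either gene reached clone 38. Mrpl43 of the mitochondrial ribosome, Eif1ad, and Trmt112, a partner of several methyltransferases, rose by 1.27, 1.24 and 0.91 in treated libraries. Gstp1 and Gstp2, glutathione transferases, rose by 1.13 and 1.01, but they are neighbouring near-identical genes whose reads may have been divided between them, so their separate values are uncertain.

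At the other end was Scd1 (chr19:44394450-44407709), stearoyl-CoA desaturase, which makes monounsaturated fatty acids. Its untreated level was 232.6 and 115.1 CPM in clone 38, 778.1 and 853.5 CPM in clone 228, and 388.6 and 216.3 CPM in clone 273. With doxycycline it was 192.3 and 158.9 CPM in clone 38, 580.0 and 567.1 CPM in clone 228 and 191.8 and 148.9 CPM in clone 273. Clone 38 lay far below clone 228 but overlapped clone 273, and the treated log2 difference of -1.08 ± 0.56 did not pass the test (edgeR adjusted p = 0.154). Its Cast/all ratio was nevertheless 0.266 and 0.332 in treated clone 38 and 0.453 to 0.510 in the controls. Scd2, its neighbour and paralog, had a treated log2 difference of -0.75, which did not pass the test. It was at 736.5 and 665.8 CPM in clone 38, below clone 228 at 1811.1 and 1696.0 CPM and above clone 273 at 634.5 and 584.5 CPM. Pgam1, phosphoglycerate mutase of glycolysis, was at 964.2 and 1032.0 CPM in treated clone 38, within the control range of 763.0 to 1562.5 CPM, with a ratio of 0.371 and 0.374 against 0.483 to 0.530. Pcgf5, a Polycomb group gene named after its value was seen, had the lowest treated log2 difference, -1.22, which did not pass the test (edgeR adjusted p = 0.083).

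Genes were called buffered where the untreated Cast/all ratio was lower in clone 38 by at least 0.1 but the untreated total log2 difference was under 0.29. The rule has no lower limit, so it also takes in genes below the controls. It held for 41 of 164 genes with at least 100 mean total reads and 50 mean allele reads that were listed in all 12 libraries (25%). Off chromosome 19, over all fitted genes, the untreated median was -0.01 and the first quartile -0.38. The limit of 0.29 lies less far than that below the chromosome 19 median of 0.59. A share of 25% this far below the centre was thus also reached by genes elsewhere. Of the 164, 139 had the allelic shift. Of the 41, 13 were under -0.29 in untreated libraries, among them Scd1 (-1.68), Scd2 (-1.03), Pgam1 (-0.57), Fam45a (-0.49) and Cbwd1 (-0.47), and 4 were called lower in treated libraries. Malat1, at -0.64 untreated and 2.04 treated, also met the rule. Dpf2 (0.28) was the last gene inside the limit and Fam178a (0.33) the first outside. In treated libraries, of which the choice had used only that a gene was listed, 33 of the 41 were again under 0.29, with a median of 0.06, against 15 of the other 98 shifted genes, with a median of 0.71. The treated 95% interval lay wholly under log2(1.5) for 28 of the 41 and for 11 of the 98. Both conditions rest on the same clones, and their differences correlated as much off chromosome 19 (r = 0.75) as on it (r = 0.75). Genes chosen for a low untreated value would thus tend to stay low on any chromosome, so these counts are no test of buffering. By allele, the buffered genes had a median of -0.37 for Cast reads and 0.52 for 129 reads in treated libraries, and the other shifted genes 0.21 and 1.28. A low total with a lower Cast share entails lower Cast reads, so this division largely restates the rule.

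**Figure D4:**
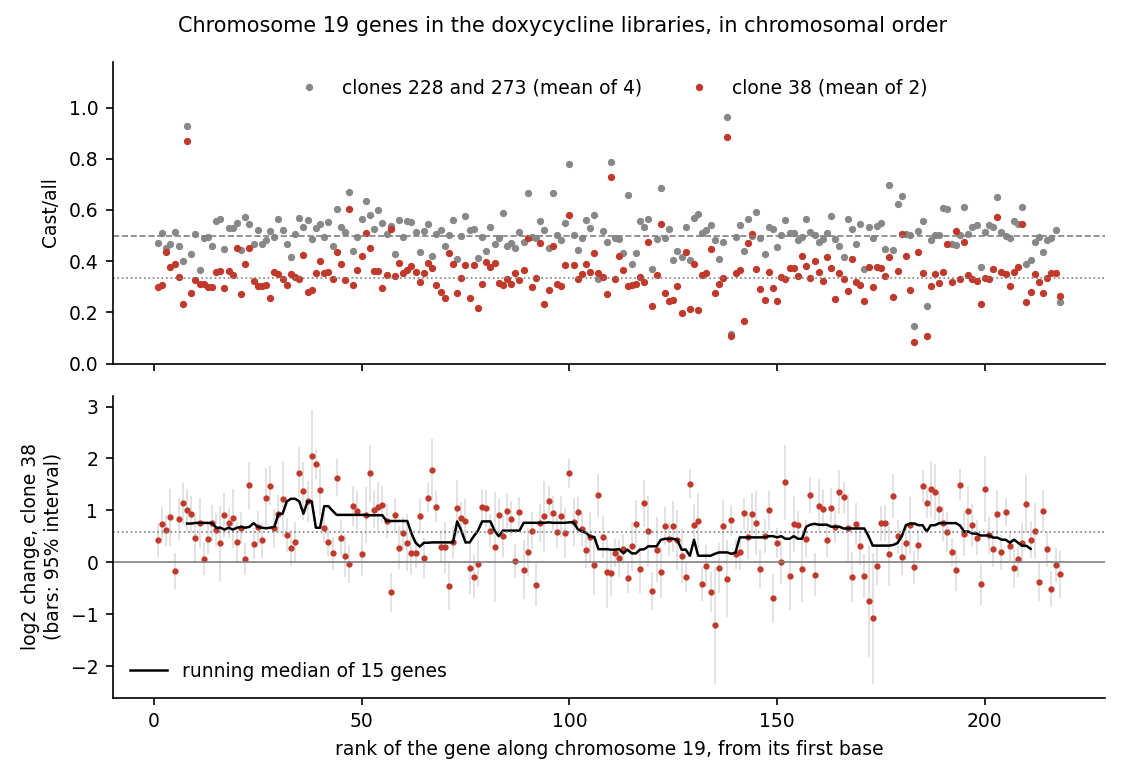
Chromosome 19 genes of the treated libraries by rank of position (horizontal axis, 218 genes). The upper panel gives the mean Cast/all ratio in clone 38 (red, 2 libraries) and the controls (grey, 4 libraries), and the lower panel the log2 difference in total counts with its 95% interval and a running median over 15 genes (line). Ratios of clone 38 lie around the dotted line at 0.333 along the whole chromosome, and the running median stays above 0 while single genes fall on either side of it.

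Hells, a chromatin remodelling helicase, shows what such a gene looked like without a change in total. Its treated level was 441.2 and 372.5 CPM in clone 38 and 396.3 to 531.6 CPM in the controls, while its ratio was 0.287 and 0.297 against 0.453 to 0.532. Actr1a of the dynactin complex was at 161.3 and 170.6 CPM against 140.1 to 150.1 CPM, a log2 difference of 0.20, with a ratio of 0.339 and 0.298 against 0.427 to 0.510. The total differed little and the allelic make-up differed in every library.

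A few genes had no allelic shift in untreated libraries, by a difference in ratio above -0.05. They included Stx3, Fads2, Nmrk1, Tmem2, Prune2 and Ldb1, a cofactor of LIM-domain transcription factors. In treated libraries the ratios of Stx3, Fads2, Tmem2 and Ldb1 were lower in both clone 38 libraries than in all controls. Fads2 was at 0.390 and 0.338 against 0.409 to 0.510, and Tmem2 at 0.330 and 0.285 against 0.342 to 0.440. Nmrk1 and Prune2 overlapped the controls. Ldb1 was already weighted to 129 in the controls, at 0.200 to 0.246 in treated libraries against 0.088 and 0.127 in clone 38, and its total rose by 1.15 on the log2 scale. The total of Fads2 differed by -0.15 in treated libraries and did not pass the test.

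The log2 difference of clone 38 also moved with the GC content of the exons, on and off chromosome 19 alike. Spearman's rho between log2 difference and exon GC was 0.40 off chromosome 19 and 0.39 on it in untreated libraries, and 0.35 and 0.34 in treated libraries, as a description across genes of the same libraries. In the lowest of 5 equal bins of exon GC the treated median was 0.06 on chromosome 19 and -0.34 off it, and in the highest it was 0.76 and 0.22. The difference between chromosome 19 and the rest was 0.41, 0.57, 0.55, 0.55 and 0.54 from the lowest to the highest bin in treated libraries, and 0.38 to 0.75 in untreated ones. The buffered genes had a median exon GC of 47.0%, against 53.2% for the other shifted genes.

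**Figure D5:**
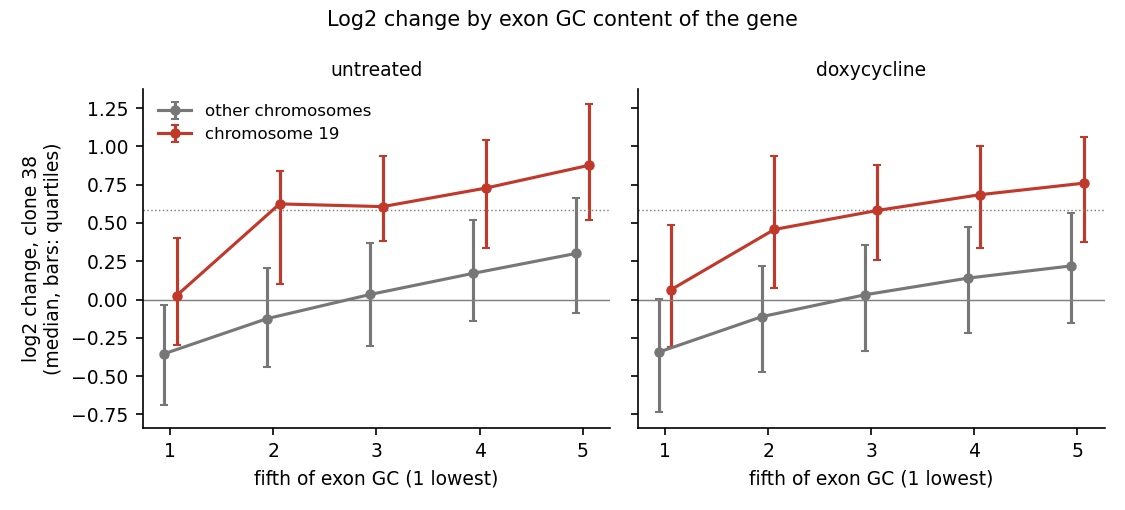
Median log2 difference between clone 38 and controls (vertical axis, bars are quartiles over genes) by bin of exon GC content, 5 bins of equal size (horizontal axis), for chromosome 19 (red) and other chromosomes (grey), without and with doxycycline. Both sets rise with GC, from -0.34 to 0.22 off chromosome 19 and from 0.06 to 0.76 on it in treated libraries, and chromosome 19 stays above the rest in every bin.

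With an offset for exon GC and length fitted in each library on genes off chromosome 19, an alternative added after the data were seen, the chromosome 19 median was 0.58 in untreated (1.496-fold) and 0.53 in treated libraries (1.44-fold). The treated test then called 123 of 218 chromosome 19 genes higher (56.4%) and 1 lower (0.459%), against 12.1% and 13.6% of genes off chromosome 19. The offset gave 39 buffered genes, of which 31 were among the 41. With the offset, 27 of the 41 were under 0.29 in treated libraries, with a median of 0.15, against 17 of the 98 others, with a median of 0.69. Here too the clones were the same, so genes chosen as low would tend to stay low. Under 0.29 with and without the offset, in untreated and treated libraries alike, were 24 genes, among them Scd1, Scd2, Fads1, Pgam1, Erlin1 of the endoplasmic reticulum, Smc5 of the SMC5/6 complex, Stip1, a co-chaperone, Tnks2, a tankyrase, Uhrf2, Vps13a, Capn1, Polr2g of RNA polymerase II and Actr1a.

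Along the chromosome, the median treated log2 difference was 0.76 from 0 to 10 Mb, 0.58 from 10 to 20 Mb, 0.31 from 20 to 30 Mb, 0.19 from 30 to 40 Mb, 0.59 from 40 to 50 Mb and 0.26 from 50 to 62 Mb. The median exon GC of these windows was 54.9%, 48.8%, 49.0%, 43.5%, 52.2% and 44.7%. With the offset the medians were 0.66, 0.46, 0.50, 0.51, 0.63 and 0.38, a narrower range. Windows 3 and 6 held 15 genes each. By level, the lowest, middle and highest of 3 equal groups of genes had treated medians of 0.55, 0.69 and 0.52.

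The chromosome 19 genes were next grouped by function and are read against the chromosome 19 median of 0.59 and the 54.5% called higher. In splicing and RNA export, 9 of 10 measured genes rose, with a median of 0.87. Sf3b2 of the U2 snRNP rose by 0.68, Prpf19 by 0.88 and Nxf1, the mRNA export receptor, by 0.86. Hnrnpul2 was at 506.0 and 444.5 CPM in treated clone 38 and 202.3 to 272.7 CPM in the controls, which did not overlap. Of 10, the exception was Cwf19l1, at 0.32.

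In ribosome and translation, 11 of 17 measured genes rose, with a median of 0.84. The genes of ribosome assembly Rrp12, Pdcd11 (1.41), Nolc1 (1.35) and Wdr74 (1.05) were among them. Eef1g, a subunit of elongation factor 1, was at 3367.4 and 4162.2 CPM in treated clone 38 and 1910.4 to 2376.2 CPM in the controls, a log2 difference of 0.84 ± 0.15. In untreated libraries it was at 3630.9 and 6240.0 CPM against 1756.2 to 1906.7 CPM, so the replicates of clone 38 differed from each other while both stayed above the controls. Fau, which encodes a ribosomal protein fused to a ubiquitin-like domain, had a difference of 0.12 and Eif3a one of 0.26, and neither passed the test without the offset. With the offset 13 genes of the list were called higher, with a median of 1.01.

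In transcription and chromatin, 6 of 8 genes rose, with a median of 0.66, including Mta2 of the NuRD complex (0.99), Dpf2 of the BAF complex (0.67) and Taf5 of TFIID (0.47). Polr2g differed by -0.27 and did not pass. In mitosis and cohesion, 4 of 7 rose, with a median of 0.94: Cdca5, which protects cohesin (0.99), Incenp of the chromosomal passenger complex (0.97), Cep55 of abscission (0.94) and Men1 (1.10). Men1 encodes menin, a transcription cofactor, and was counted here only because the list held it. Smc3, the cohesin subunit, was at 325.0 and 289.3 CPM in treated clone 38 and 230.8 to 258.2 CPM in the controls, a log2 difference of 0.32. Kif11, the spindle kinesin, overlapped the controls at 242.0 and 201.8 CPM against 170.6 to 215.7 CPM. Neither passed the test, and with the offset all 7 did.

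In replication and repair, 5 of 11 genes rose, with a median of 0.39. They were the flap nuclease gene Fen1 (0.61), Pola2 of DNA polymerase alpha (0.40), Ddb1 (0.59), Rad9a of the 9-1-1 clamp (0.77) and Mms19 (0.72). With the offset Fen1 and Pola2 did not pass and Rnaseh2c did (0.48). In carbon and amino acid metabolism, 5 of 9 rose, with a median of 0.68, including the transaminase gene Got1 (0.68) and Aldh18a1 of proline synthesis (1.00), while Psat1 of serine synthesis differed by 0.24. With the offset Minpp1 did not pass and 4 of the 9 did. In signalling, 5 of 8 rose, with a median of 0.53, among them Mark2, a microtubule-affinity kinase (1.78), and the kinase gene Chuk (0.73). With the offset Lrp5 and Ppp2r5b did not pass, Shoc2 did (0.42), and 4 of the 8 were called. In mitochondrion and redox, 3 of 8 rose, with a median of 0.34, Cox15 of haem A synthesis (1.25), Slc25a28, a mitochondrial iron carrier (1.35), and Sdhaf2 (0.88). The respiratory chain genes Ndufs8 (-0.17) and Cox8a (0.08) did not pass. Usmg5 had a difference of -0.43, and one of 0.53 with the offset. With the offset 6 of the 8 were called higher.

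Lipid metabolism was the list with the lowest median of all the chromosome 19 lists, at -0.03 over 9 measured genes, and 2 of them rose, Cpt1a of mitochondrial fatty acid import (0.43) and Bscl2 of lipid droplets (1.04). Scd1, Scd2, Fads1 (0.20), Fads2, the sterol reductase gene Tm7sf2 (-0.03) and Erlin1 (-0.28) did not pass the test. With the offset 1 of the 9 passed. No member of any chromosome 19 list was called lower.

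Of the long noncoding RNAs, Neat1 (chr19:5824708-5845480), the scaffold of paraspeckles, was at 553.9 and 529.6 CPM in untreated clone 38 and 219.6 to 309.0 CPM in the controls. With doxycycline it was at 1364.5 and 1243.1 CPM against 329.7 to 376.0 CPM, a log2 difference of 1.89 ± 0.12. Its ratio was 0.344 and 0.360 in treated clone 38, against 0.5 to 0.575 in the controls. Malat1 was at 924.1 and 406.6 CPM in treated clone 38 against 75.3 to 193.6 CPM, but in untreated libraries clone 38, at 389.0 and 178.6 CPM, lay within the controls' range of 95.2 to 1242.5 CPM. The upper end of that range was 1 library of clone 228, the other being at 277.1 CPM, and the lower end was a library of clone 273.

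Genes on other chromosomes differed between clone 38 and the controls in both directions. The treated test called 987 of 6034 higher and 1171 lower. Without clone 38 replicate 1 it called 126 and 141, and without replicate 2 it called 400 and 444. Scaled to library totals alone, it called 1455 higher and 807 lower, 64.3% of the calls higher against 45.7%. The treatment induces Xist on chromosome 12, by the description above on different copies in clone 38 and the controls, and the chromosome 12 ratio was 0.703 in treated clone 38 against 0.661 ± 0.0043 in the controls (SD, n = 4). Chromosomes 12 and X were therefore left aside for the largest differences named next, but not for the gene lists after them. Of 1634 genes called there with at least 50 mean reads, 903 were apart the same way in untreated libraries, 410 of them higher in clone 38 and the others lower. Of all genes off chromosome 19, 18.1% were apart higher and 18.7% apart lower in untreated libraries, and both comparisons rest on the same 3 clones.

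The furthest above the controls included Tdh, the threonine dehydrogenase of mouse ESCs, at 546 and 622 CPM in treated clone 38, 53.9 and 49.5 CPM in clone 228, and 188 and 240 CPM in clone 273. Its log2 difference was 2.13 ± 0.57, and the controls differed from each other as well. Zscan10, an ESC transcription factor, was at 132.4 and 122.2 CPM against 25.9 to 49.6 CPM (1.85 ± 0.23). Mllt6 (2.43), Gm20362 (2.37), Tmem8 (2.12), E130012A19Rik (1.84), Zfp532 (1.72) and Tns3, a tensin of focal adhesions (1.69), completed the 8 largest rises.

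The largest fall was that of Gadd45b, a stress-response gene, at 19.5 and 20.9 CPM in treated clone 38, 274 and 261 CPM in clone 228 and 102 and 59.0 CPM in clone 273, a log2 difference of -3.10 ± 0.66. Tpi1, triosephosphate isomerase, was at 124 and 148 CPM in treated clone 38, 1555 and 1546 CPM in clone 228, and 436 and 261 CPM in clone 273 (-2.80 ± 0.75). In untreated libraries it was at 145 and 230 CPM against 1245 to 2020 CPM. Pfkl, phosphofructokinase, and Pgm2, a phosphoglucomutase, had log2 differences of -2.42 and -2.77. In treated libraries clone 273 lay between clone 38 and clone 228 for all 3 genes. Calcoco2, an autophagy receptor (-2.51), Fam162a (-2.50), the germ cell factor Sohlh2 (-2.44) and Plod2, a lysyl hydroxylase (-2.35), were the remaining members of this group. With the offset, Fam162a and Plod2 did not pass the test, and Pgm2, which had no exon GC value, was not fitted.

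Of the lists off chromosome 19, read against 16.4% higher and 19.4% lower, naive pluripotency had 8 of 17 measured genes higher and 0 lower, with a median of 0.73. The remaining member, Dppa3, could not be tested. It was listed in every treated control library but below the minimum in both treated clone 38 libraries, which had fewer allele reads. The 0 lower therefore leaves out a member that may go the other way. Klf2 was at 201 and 294 CPM in treated clone 38 and 69.0 to 120 CPM in the controls. Tbx3 was at 256 and 254 CPM against 47.5 to 117 CPM. Klf5 (1.44), Utf1 (1.33), Nr0b1, Esrrb (1.09), Tfcp2l1 (1.03) and Sall4 (0.61) were also higher, while Pou5f1 (-0.04) and Sox2 (0.23) did not pass. Esrrb lies on chromosome 12 and Nr0b1 on chromosome X. Members of the lists that follow were not separated by chromosome either, so a call among them may also lie there. Of all fitted genes, 23.3% of those on chromosome 12 and 35.5% of those on chromosome X were called lower in treated libraries. With the offset Esrrb and Sall4 did not pass, and Fgf4 (-0.48) and Lin28a (-0.57) were lower. The summed level of the whole list, over the 16 to 18 listed of 18, was 6951 to 7913 CPM in clone 38 and 3963 to 6124 CPM in the controls, clone 228 being the lower of these.

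In cholesterol and fatty acid synthesis, 7 of 21 genes were lower and 0 higher, with a median of -0.42. Insig1, a sensor of sterols, was at 108 and 106 CPM in treated clone 38, 478 and 450 CPM in clone 228, and 220 and 157 CPM in clone 273. Dhcr7 (-1.32), Cyp51 (-1.23), Idi1 (-1.08), Msmo1 (-1.06), Sc5d (-0.92) and Fdps (-0.63), enzymes of sterol synthesis, were the others. With the offset 5 of the list were lower, Dhcr7, Cyp51, Idi1, Acaca (-0.55) and Acly (-0.50), and Insig1, Msmo1, Sc5d and Fdps did not pass. Fasn (0.26), the fatty acid synthase gene, did not pass. Like Scd1 and Scd2, Insig1 was lower in clone 273 than in clone 228.

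Of 20 chaperone genes, 5 were lower and Herpud1 was higher (0.79). Hsp90aa1, the cytosolic HSP90, fell by 1.58 on the log2 scale, and Hsp90b1 and Hspa5 of the endoplasmic reticulum fell by 1.71 and 0.97, while the paralog Hsp90ab1 differed by 0.14 and did not pass. Of 28 proteasome subunits, 11 were lower and 0 higher, with a median of -0.37 in treated and 0.12 in untreated libraries. Psmc6 was the furthest, at 124 and 147 CPM against 275 to 336 CPM (-1.19 ± 0.15). With the offset 10 were lower and 2 higher, with a median of -0.14. Of 14 p53 target genes, Ccng1 (-0.75) and Trp53inp1 (-1.07) were lower, and Sesn2 (1.58) and Tnfrsf10b (0.60) higher. With the offset Sesn2 was higher, Aen lower (-0.54), and the other 3 did not pass. Of the smaller lists, Dnmt3b (1.00) was the single call of 2 formative and primed genes, Fn1 (0.76) that of 3 feeder markers, and none was called among 5 primitive endoderm markers, 2 PI3K-Akt-FoxO targets, or the 1 measured gene each of the neural, Wnt and interferon lists. With the offset Dnmt3b and Fn1 did not pass, and Dnmt3a (-0.98), Lama1 (-0.73) and Lamb1 (-0.75) were lower.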

How the data were processed

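The authors sequenced TruSeq RNA libraries as single reads and, per the labels and the study's methods, aligned them with TopHat (2.0.6) to both parental genomes built on mm10, kept the best unique alignments, summed Cast and 129 bases over the exonic SNPs of each RefSeq gene, and counted all reads per gene with HTSeq (0.6.1). The deposited counts are not normalised. A read over several SNPs adds to the allele count at each, so allele counts are not independent molecules. For 16 of the chromosome 19 genes listed in all 12 libraries the total count was below the allele count, and the reason was not tested. The deposited Cast/all fraction of each gene is its Cast count over both allele counts. Medians of it are per library.

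Genes listed in every library of a comparison were fitted with edgeR (4.0.16) in R (4.3.3), with TMM factors and the quasi-likelihood test of clone 38 against clones 228 and 273, and Benjamini-Hochberg adjustment over all genes at 0.05. Allele counts were fitted with a term per library and a term per allele. DESeq2 (1.42.0) was an alternative. Library medians were compared with a two-sided exact permutation test. Levels are TMM-scaled CPM. Allele reads were compared on log2 with a pseudocount of 0.5. The models were tested on simulated data. Coordinates, exon GC and length came from RefSeq on GRCm38.p6 (mm10), which matched 484 of 486 chromosome 19 genes. Precision is limited by the 2 libraries of clone 38 per condition and by reads per gene.

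The genes named were: on chromosome 19, among genes with at least 100 mean total and 50 mean allele reads, the 8 highest and the 8 lowest buffered untreated differences, 6 without allelic shift, and the 3 best covered of each list; off it, the 8 largest rises and falls with the same separation in untreated libraries; and list members that passed the test. Other list members were named for their function. The members, lists and rules were chosen with earlier results of these data known. Alternatives by read class (total over allele reads below or above 3.3), against each control clone alone and with the GC offset (spline with 5 degrees of freedom) were added after the data were seen. Of 60 samples, 8 libraries of clone 292 were not used because the labels did not settle their group.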

Additional observations from a re-analysis of the deposited data

Results flagged for a closer look

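Among the 4 untreated control libraries, clone 228 replicate 1 had a chromosome 19 median Cast/all ratio of 0.505 while the other 3 were at exactly 0.5, a gap as large as the whole range. For values without ties such a gap would be expected in about 1 in 20 groups of this size, a rate that does not apply to the 3 equal medians here, and groups of 2 were not examined.

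Neurons derived from clone 38, 1 library each without and with doxycycline, lay outside the comparisons above. Their chromosome 19 median ratio was 0.333 without and 0.337 with doxycycline, against 0.462 and 0.505 in neurons of clone 20. The difference has no replicate check. The labels do not say how clone 20 relates to clone 38, and both may be sublines of the same clone. The chromosome 12 median ratio was 0.756 without and 0.830 with doxycycline in neurons of clone 20, against 0.659 and 0.732 in those of clone 38.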

How the results depend on the processing

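The chromosome 19 median less that of other genes was 0.595 in untreated libraries, 0.557 with the GC and length offset, and 0.603 to 0.661 leaving out 1 library each. In treated libraries it was 0.609, with 0.546 under the offset with or without a term for read class, 0.735 with unlisted genes set to 0 and filterByExpr, 0.621 with the replicate block, 0.595 within the low read class, 0.594 against clone 228 alone, 0.564 against clone 273 alone, and 0.573 to 0.616 leaving out 1 library. The count of buffered genes was 36 to 47 leaving out 1 library, and stayed within 1.5 times 41 in all alternatives run. The 120 chromosome 19 genes called higher became 44 within the low class, 2 within the high class, and 54 to 118 leaving out 1 library, fewest without clone 38 replicate 1. The 6 called lower became 0 with library totals, with a class term or within either class, 1 with the offset with or without the class term, 14 with a term per clone, 21 against clone 228, 2 against clone 273, and 0 to 13 leaving out 1 library. Off chromosome 19, the 987 higher became 518 with filterByExpr, 1603 with a term per clone, 341 with offset and class term, 271 and 11 within the low and high classes, 1749 against clone 228, and 126 to 1239 leaving out 1 library. The 1171 lower became 374 with offset and class term, 301 and 5 within the classes, and 141 to 1401 leaving out 1 library. Within a class each fit had 3 libraries. Genes called by allele ratio numbered 64 to 107 leaving out 1 library. The ratio difference was -0.163 untreated from pooled reads, against -0.159 from medians, with -0.161 to -0.156 leaving out 1 library, and -0.169 to -0.158 treated. Against all other clones the treated difference was -0.164 (exact permutation p = 0.0036, over libraries and not over clones). The treated differences of Fam45a and Usmg5 reversed under the offset, to 0.014 and 0.53, and to 0.0139 and 0.52 with the class term. The cause of these changes was not tested. By replicate number, the deviations of clones 38 and 228 ran in opposite directions (r = -0.41 untreated, -0.23 treated). Whether these libraries share a batch under crossed numbers was not tested. The replicate block gave 107 chromosome 19 genes higher and 7 lower, 954 and 1131 elsewhere, and 93 by allele ratio. Crossing the numbers of clones 38 and 228, which in treated libraries is the division by read class, gave 103 and 0 on chromosome 19 and 709 and 882 elsewhere. DESeq2 gave 124 and 7 on chromosome 19. With 2 clone 38 libraries the treated 95% interval of 68 chromosome 19 genes held no change.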

Other observations

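In the neurons, the median total of chromosome 19 genes was 1.36-fold higher in clone 38 than in clone 20 without doxycycline (422 genes) and 1.52-fold higher with it (396 genes), from 1 library each and with no test. The clone 20 library without doxycycline had a chromosome 19 ratio of 0.462, below the 0.498 to 0.512 of ESC libraries other than clone 38. Its use as a 2-copy reference is therefore uncertain. The Cast/all ratio was lower in clone 38 for 393 of 425 genes without and 383 of 400 genes with doxycycline.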
